A study of Mus musculus with 114 samples.

Results

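The genes described here are 43 genes of the lysosome, out of 29132 genes with a value in isolated adipocytes of the mouse. They were taken by symbol from a set list and comprise 11 cathepsins, 15 subunits and accessory proteins of the vacuolar proton pump, and 17 other hydrolases and membrane proteins. The adipocytes are the cells that float after the perigonadal fat pad is digested with collagenase. The donors were male C57BL/6J mice fed from 6 weeks of age with either a control chow (CD) or a diet high in fat (HFD). RNA-seq was analysed for 38 mice. There were 6 CD and 6 HFD mice after 8 weeks on diet, 6 CD and 6 HFD mice after 20 weeks, and 8 CD and 6 HFD mice after 34 weeks. The methods name 2 formulas of the control diet without saying which mouse received which, and older mice had also been on their diet for longer, so that age and time on diet cannot be told apart. The float was not sorted, and other cells attached to the adipocytes may be counted with them.

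Lysosomes are acidic compartments in which proteins, lipids, glycogen and other sugars are broken down. The proton pump (V-ATPase) has a cytosolic part, V1, that uses ATP and a membrane part, V0, that carries protons, and it keeps the lumen at the acid pH that cathepsins and most other hydrolases need. In adipose tissue, macrophages that take up lipid from adipocytes are known for abundant lysosomes, and adipocytes hold lysosomes as well. Many lysosomal genes carry a site with the letters CACGTG near their start, to which TFEB and its relatives of the MiT/TFE family bind.

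To show the sequences in question, the RefSeq promoters (build GRCm38.p6, 250 bases before to 50 bases after the start) were searched for CACGTG and for its longer form TCACGTGA, both of which read the same on either strand, so that every long site is also a short one. A promoter was found for 35 of the 43 genes, and 12 of these (34.3%) held CACGTG, as did 8.09% of the 27025 genes with a promoter. TCACGTGA was present for 6 of the 35 (17.1%) and for 1.12% of all genes. The short form was found for 4 of 9 cathepsins, 4 of 11 proton pump genes and 4 of 15 other members. Ctsa, Ctsd, Atp6v1a and Gla are shown because they carry the long form before a start given by RefSeq and are described below. For Ctsd and Gla that start is the outermost one of the gene. For Ctsa and Atp6v1a it is an inner start, 901 and 443 bases inside the gene as RefSeq places its 5′ end, so that the site lies within the longer form of the gene. In the GENCODE vM21 annotation the Ctsa and Ctsd sites shown fall in the UTR of a transcript of the same gene, and the Atp6v1a site falls in an intron. The Gla site shown, at -195 from the start, falls in the UTR of Hnrnph2, a gene on the other strand. Gla holds another TCACGTGA at -228 in the same UTR, which is not shown. Further CACGTG sites of Ctsd (at -245) and Ctsa (at 4) are not shown either. Gaa, which carries only the short form, at a site outside annotated transcripts, is shown beside them because it ended lower in HFD than in CD mice. The capitals mark the motif, and the runs are written 5′ to 3′ on the strand of the gene.
Ctsa (chr2:164833749-164833772, plus strand): tgagcaaactgTCACGTGAtgcag
Ctsd (chr7:142387908-142387937, minus strand): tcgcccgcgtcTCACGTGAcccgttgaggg
Atp6v1a (chr16:44139373-44139402, minus strand): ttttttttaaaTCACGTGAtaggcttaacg
Gla (chrX:134601182-134601211, minus strand): tgagatctcggTCACGTGAgcaactctcgg
Gaa (chr11:119267812-119267839, plus strand): ttctgtgcgatCACGTGtttgactctga
The promoters of Ctsk, Ctss, Ctsc, Ctso and Lipa had no CACGTG in this window. Binding was not measured, and a match in letters is a description of the sequence only.

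Read depth was 9275711 to 15480388 reads on genes per mouse, so that 1 read was worth 0.0646 to 0.108 CPM, the reads of a gene per 1000000 reads on genes. At 8 weeks depth ran from 10562845 to 12611013 in CD and from 13201234 to 15480388 in HFD mice. The diets thus did not overlap in depth at that time. Both 34 week groups (highest 12433584) lay below both 20 week groups (lowest 13091365). The part of depth in the differences was not tested. All 43 genes passed the filter on low values (mean log2(CPM + 1) above 2) and were tested with limma among 10343 genes. In the following, a gene is said to have risen or fallen where its Benjamini-Hochberg adjusted p was under 0.05, and log2 differences are on the log2(CPM + 1) scale. Mouse 1 of the 20 week CD group stood apart from its group, and the 8 CD mice at 34 weeks were spread widely. The mean of 13 macrophage markers, on the log2(CPM + 1) scale, was 7.00 in that 20 week mouse and 4.35 to 5.84 in the other 5, and it ran from 5.30 to 8.33 in the 34 week CD mice. In the plot of all members by mouse, both departures can be seen as columns that are darker or paler than their neighbours.

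**Figure D1:**
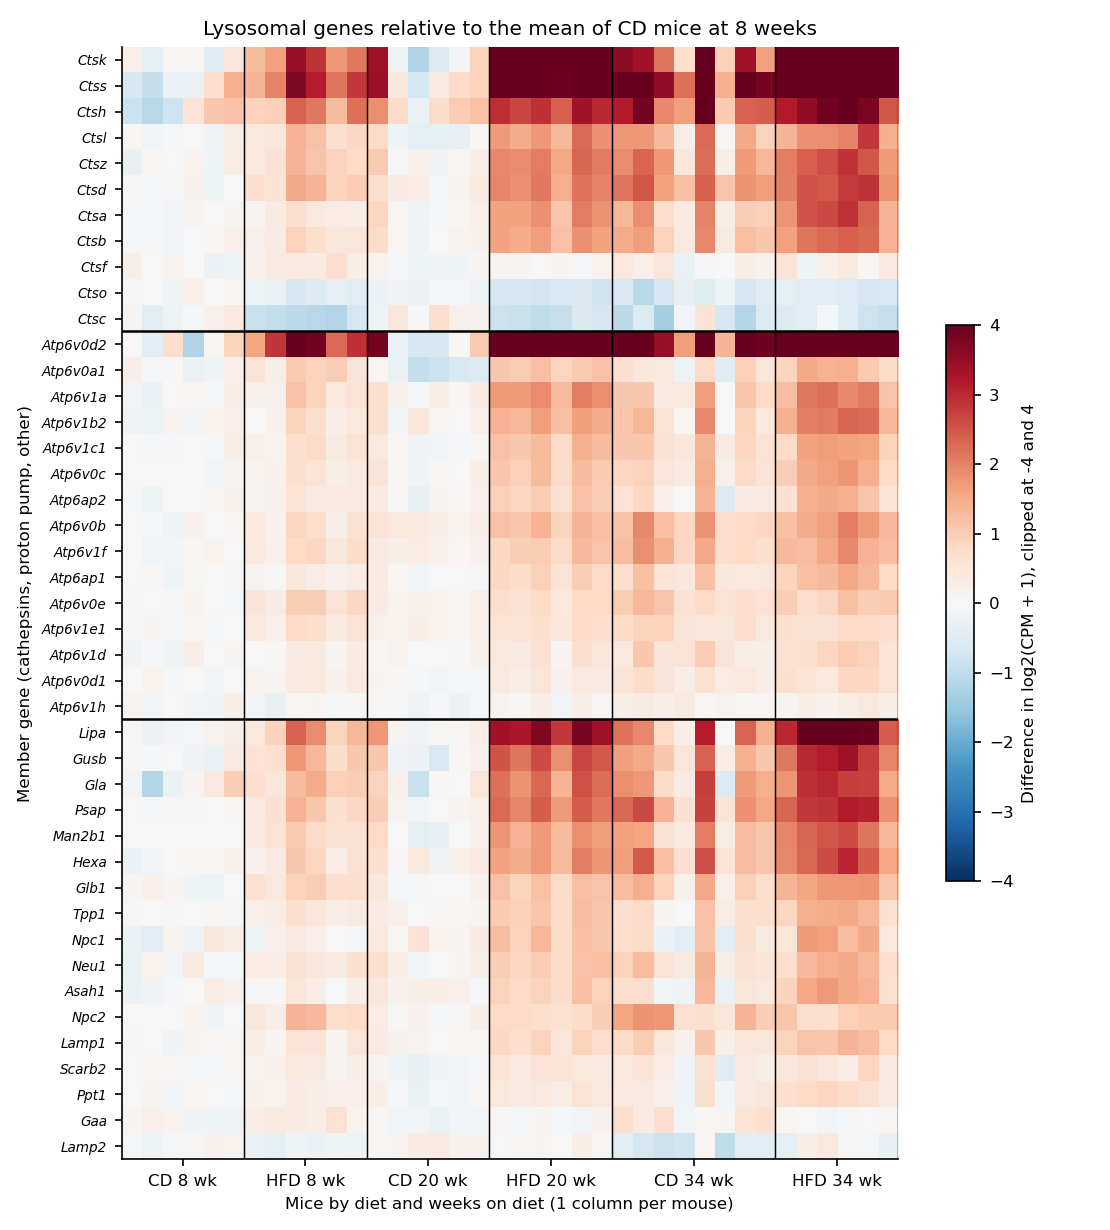
Each row is a member gene and each column is 1 of 38 mice. The colour is the difference in log2(CPM + 1) from the mean of the CD mice at 8 weeks, clipped at -4 and 4, and black lines separate groups and gene classes. Most rows are red in HFD mice at 20 and 34 weeks, Ctsc and Ctso are blue in HFD mice, and 20 week CD mouse 1 is redder than the 5 mice beside it.

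Together the 43 genes made up a larger part of the adipocyte reads in HFD mice. In CD mice they took 1.14% ± 0.0556 (SD, n = 6) of the reads at 8 weeks, 1.29% ± 0.251 (n = 6) at 20 weeks and 2.80% ± 1.07 (n = 8) at 34 weeks. In HFD mice the shares were 1.78% ± 0.395, 3.385% ± 0.532 and 4.65% ± 1.19 (n = 6 each). The lowest HFD mouse exceeded the highest CD mouse at 8 weeks (1.40% against 1.24%) and at 20 weeks (2.53% against 1.79%), while at 34 weeks the lowest HFD mouse (2.91%) lay below the highest CD mouse (4.39%). The cathepsins alone ran from 0.5245% of reads in 8 week CD mice to 2.44% in 34 week HFD mice, as group means. The cysteine protease Ctsb and the aspartic protease Ctsd supplied most cathepsin reads in every group, with group means of 71.0% to 74.8% of all cathepsin reads.

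Divided by exon length, the members differed widely in level. Averaged over the 38 mice, Ctsd was the most abundant at 1716 CPM per kb, close to Psap, the precursor of the saposins that help lipid hydrolases, at 1715 CPM per kb. Their ranges over mice were 517 to 4390 and 498 to 4825, and their order differed between groups. By group mean, Ctsd was above Psap in 8 week CD (587 against 537) and HFD mice (1199 against 974). The same held in CD mice at 20 weeks (725.5 against 653) and 34 weeks (2158 against 1994). Psap was above Ctsd in HFD mice at 20 weeks (2411 against 2244) and 34 weeks (3626 against 3237). This order was not tested. In the average over all mice, Ctsb followed at 858 and Ctss at 520 CPM per kb. Ctso, Atp6v1d, Ctsf, Neu1 and Npc1 lay at 15.0, 14.5, 14.3, 13.03 and 8.62 CPM per kb at the low end. The ranges of those last 5 overlapped. Relative to their lowest value, the widest ranges belonged to Ctsk, from 1.56 to 548 CPM per kb, and to Atp6v0d2, from 0.477 to 249 CPM per kb.

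To ask how the diet changed lysosomal genes over time, HFD and CD mice were compared at each time. At 8 weeks 28 of the 43 members rose and 2 fell in HFD mice, where 29.8% of all genes tested rose and 15.1% fell. At 20 weeks 38 members rose and 2 fell, against 38.3% and 18.7% of all genes. At 34 weeks 31 members rose and 1 fell, against 27.5% and 15.7%. The median log2 difference of the members was 0.50, 0.90 and 0.66 at the 3 times, and that of all genes tested was 0.11, 0.14 and 0.07. The lowest HFD mouse was above the highest CD mouse for 20 members at 8 weeks and for 36 members at 20 weeks, compared with 15.7% and 26.1% of all genes, but for none of the 43 at 34 weeks, where 1.47% of all genes did so. Scaling by TMM lowered the median of all genes by 0.10 at 8 weeks and 0.21 at 20 weeks, and the members' median above that of all genes was 0.39 and 0.77 without and 0.39 and 0.76 with this scaling. Of all genes at 20 weeks, 3957 rose and 1937 fell without it, and 2718 rose and 3356 fell with it, while of the members 35 rose and 3 fell with it. Without mouse 3 of the 8 week HFD group, the highest of its group for Ctsk and Lipa, 20 rather than 30 members were called at 8 weeks. Calls at 8 weeks that some single omission undid were those of Atp6v1a, Atp6v1c1, Ctsb, Ctsl, Gla, Lamp1, Man2b1, Neu1, Psap and Tpp1. At 20 weeks this held for Atp6v1h, and at 34 weeks for Atp6v0b, Atp6v0d1, Ctsl and Neu1. All 6 groups share an estimate of spread in this fit, although the 34 week CD mice were spread widely. With only the 2 groups of a time fitted, 39, 40 and 20 members were called at 8, 20 and 34 weeks. In the joint fit these numbers were 30, 40 and 32. The share of all genes called in the fits of 2 groups is not given here, so these counts show only a dependence on the fit.

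**Figure D2:**
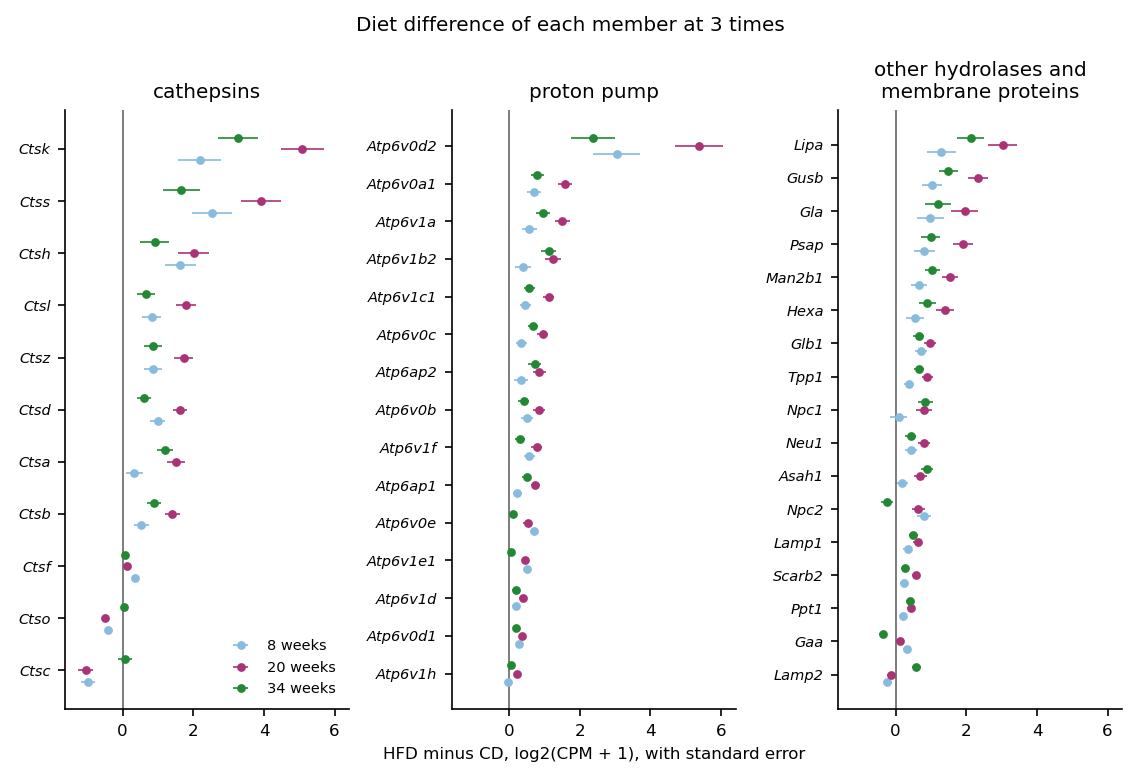
The points are the log2(CPM + 1) difference of HFD minus CD mice at 8, 20 and 34 weeks for each member, with the standard error of the limma fit as bars, in 3 panels by class. For most members the 20 week point lies farthest to the right, as for Ctsk (5.08), Atp6v0d2 (5.37) and Lipa (3.03), and Ctsc and Ctso lie left of 0 at 8 and 20 weeks only.

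Among the cathepsins 8 rose and 2 fell at 8 weeks, 8 rose and 2 fell at 20 weeks, and 7 rose and none fell at 34 weeks. The largest change was that of Ctsk, a cysteine protease that cleaves collagen and is best known from osteoclasts. In CD mice its lowest, median and highest values were 4.47, 7.07 and 9.75 CPM at 8 weeks, 2.355, 5.87 and 78.85 CPM at 20 weeks, and 11.4, 54.7 and 294 CPM at 34 weeks. In HFD mice they were 17.3, 28.1 and 84.75 CPM, then 153, 352 and 490.5 CPM, then 229, 512.5 and 828.8 CPM. The diets did not overlap at 8 and 20 weeks, and 1 CD mouse, mouse 5, reached into the HFD range at 34 weeks. The log2 difference was 2.18 ± 0.61 (SE, adjusted p = 0.00461) at 8 weeks, 5.08 ± 0.61 (adjusted p = 7.94e-08) at 20 weeks and 3.26 ± 0.57 (adjusted p = 8.13e-05) at 34 weeks.

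Ctss, the protease that processes the invariant chain of MHC class II in antigen-presenting cells, is the neighbour of Ctsk on chromosome 3. On GRCm38, Ctsk lies at chr3:95499210-95509387 and Ctss at chr3:95526786-95556405, with 17398 bases between them, and no other members were within 1 Mb of each other. Ctss ran from 19.7 to 110 CPM (median 32.6) in CD and from 102 to 532 CPM (median 229) in HFD mice at 8 weeks. At 20 weeks it ran from 23.7 to 430 CPM (median 59.7) in CD and from 605 to 1651 CPM (median 1157) in HFD mice. At 34 weeks the ranges were 106 to 1551 CPM (median 619) and 913 to 2675 CPM (median 1996). A narrow overlap at 8 weeks gave way to full separation at 20 weeks and a broad overlap at 34 weeks. The log2 differences of 2.53 ± 0.57, 3.91 ± 0.57 and 1.66 ± 0.53 (SE) had adjusted p of 0.000713, 1.02e-06 and 0.0119, and at 34 weeks DESeq2 on the recovered reads gave 1.23 and did not call it.

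Ctsh, an aminopeptidase, and Ctsz, a carboxypeptidase, were the next. Ctsh had medians of 16.3, 30.7 and 89.0 CPM in CD mice and 56.4, 130 and 214 CPM in HFD mice at 8, 20 and 34 weeks. It rose by 1.63 ± 0.44 at 8 weeks and 2.01 ± 0.44 at 20 weeks on the log2 scale (adjusted p = 0.00332 and 0.000224), whereas the 34 week difference of 0.91 ± 0.41 did not pass (adjusted p = 0.0696). The 34 week CD mice spanned 34.5 to 284 CPM of Ctsh, a range that contained all 6 HFD mice of that time. Ctsz medians were 172, 187 and 559 CPM in CD and 309, 674 and 923 CPM in HFD mice, and it rose at all 3 times, by 0.86 ± 0.26, 1.73 ± 0.26 and 0.86 ± 0.25. Of the remaining cathepsins, Ctsb rose by 0.52, 1.40 and 0.90, Ctsd by 0.99, 1.63 and 0.61, and Ctsl by 0.82, 1.79 and 0.67 at the 3 times. The calls of Ctsb and Ctsl at 8 weeks and of Ctsl at 34 weeks depended on single mice. Ctsa, the protective protein of beta-galactosidase and neuraminidase, rose at 20 and 34 weeks (1.51 and 1.204) but not at 8 weeks (0.33, adjusted p = 0.266). Ctsf rose at 8 weeks (0.36) and differed by 0.12 and 0.08 afterwards, which did not pass.

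Ctsc and Ctso went the other way. Ctsc, the dipeptidyl peptidase that activates serine proteases of immune granules, ran from 247 to 448 CPM (median 346.5) in CD and from 150 to 208 CPM (median 168) in HFD mice at 8 weeks. At 20 weeks it ran from 300 to 555 CPM (median 389) in CD and from 166 to 226 CPM (median 184) in HFD mice. At 34 weeks it ran from 135 to 501 CPM (median 221) and from 178 to 321 CPM (median 236). Every HFD mouse was below every CD mouse at the first 2 times, and at 34 weeks 4 of the 8 CD mice lay within the HFD range, 3 lay below it and mouse 5 lay above it at 501 CPM. Ctsc fell by 0.98 ± 0.21 at 8 weeks and by 1.05 ± 0.21 at 20 weeks (adjusted p = 0.000391 and 7.29e-05), and the 34 week difference was 0.06 ± 0.19 (adjusted p = 0.819). Ctso, a cysteine protease of less known function, had medians of 99.8, 87.5 and 68.1 CPM in CD and 74.9, 63.7 and 71.2 CPM in HFD mice. It fell by 0.41 ± 0.097 at 8 weeks and by 0.50 ± 0.097 at 20 weeks (adjusted p = 0.00116 and 5.71e-05) with no overlap of the diets, and differed by 0.05 ± 0.091 at 34 weeks (adjusted p = 0.649).

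**Figure D3:**
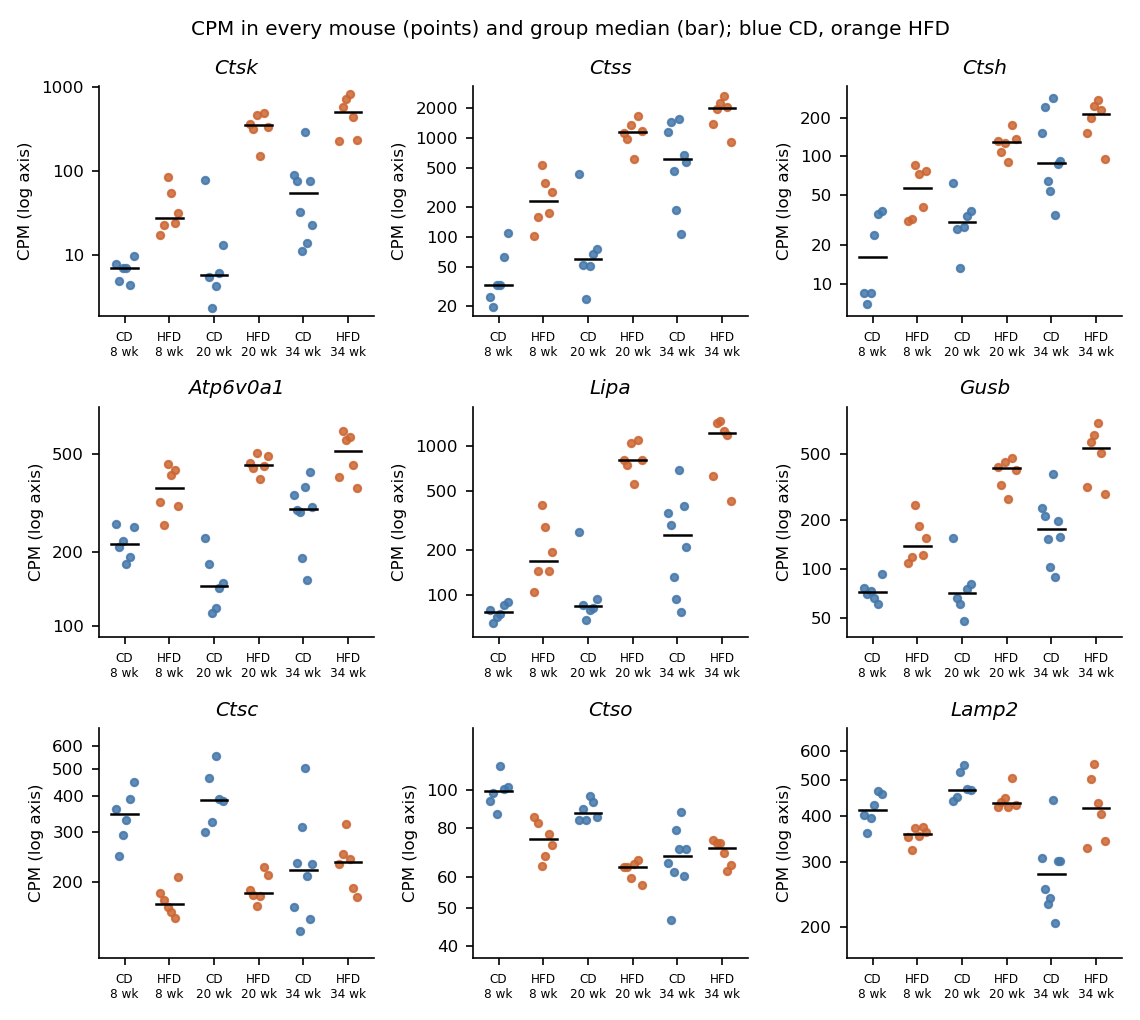
The 9 panels give CPM on log axes for Ctsk, Ctss, Ctsh, Atp6v0a1, Lipa, Gusb, Ctsc, Ctso and Lamp2, with a point per mouse and a bar at the group median, blue for CD and orange for HFD. In the 6 upper panels 20 week CD mouse 1 is the highest of its group, and in the Ctsc and Ctso panels the orange points of 8 and 20 weeks lie below all blue points of the same time.

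Of the 15 proton pump genes, 9 rose at 8 weeks, 15 at 20 weeks and 10 at 34 weeks, and none fell. At 20 weeks Atp6v1h, a regulatory V1 subunit, had the smallest difference of the class (0.21), and with TMM scaling it was at -0.00076 and no longer called. The class stands out for its d subunits, alternative parts of V0 that couple it to the V1 stalk. Atp6v0d1 is the form found in all tissues, and Atp6v0d2 is known from osteoclasts, macrophages and kidney. Atp6v0d1 ran from 122.5 to 235.5 CPM over all 38 mice, whereas Atp6v0d2 ran from 1.30 to 676 CPM. In CD mice the lowest, median and highest values of Atp6v0d2 were 1.30, 4.48 and 8.80 CPM at 8 weeks, 2.43, 4.04 and 74.3 CPM at 20 weeks, and 12.8, 121 and 281 CPM at 34 weeks. In HFD mice they were 15.0, 38.6 and 142 CPM, then 215, 330 and 464 CPM, then 181, 556 and 676 CPM. The diets were apart at 8 and 20 weeks and overlapped at 34 weeks, and at 20 weeks mouse 1 supplied the highest CD value while the other 5 CD mice were at 9.98 CPM or below.

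The log2 difference of Atp6v0d2 was 3.04 ± 0.67, 5.37 ± 0.67 and 2.38 ± 0.63 (SE) at the 3 times, with adjusted p of 0.000596, 1.38e-07 and 0.00311. That of Atp6v0d1 was 0.27 ± 0.081, 0.36 ± 0.081 and 0.19 ± 0.076, with adjusted p of 0.00703, 0.000372 and 0.0414, and with TMM scaling it passed at none of the 3 times (0.17, 0.14 and 0.10). Per kb of exon, Atp6v0d2 made up 2.42% ± 1.38 (SD) of both d subunits in CD and 16.9% ± 10.5 in HFD mice at 8 weeks. At 20 weeks its share was 6.19% ± 9.60 in CD and 56.3% ± 4.86 in HFD mice, and at 34 weeks it was 26.8% ± 16.3 in CD and 56.9% ± 13.6 in HFD mice. Per kb, Atp6v0d2 was thus the minor form in all CD mice, with at most 48.0%. It was the larger of the pair in most HFD mice from 20 weeks on. These shares rest on the exon lengths used, 2716 bases for Atp6v0d2 and 1793 bases for Atp6v0d1. In CPM, Atp6v0d2 exceeded Atp6v0d1 in 34 week CD mice 1 (208.8 against 192.7) and 5 (280.7 against 201.1). Tcirg1, the a3 subunit that is also known from osteoclasts and was not among the 43 genes, rose by 3.13 ± 0.47 at 20 weeks (adjusted p = 1.53e-06).

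**Figure D4:**
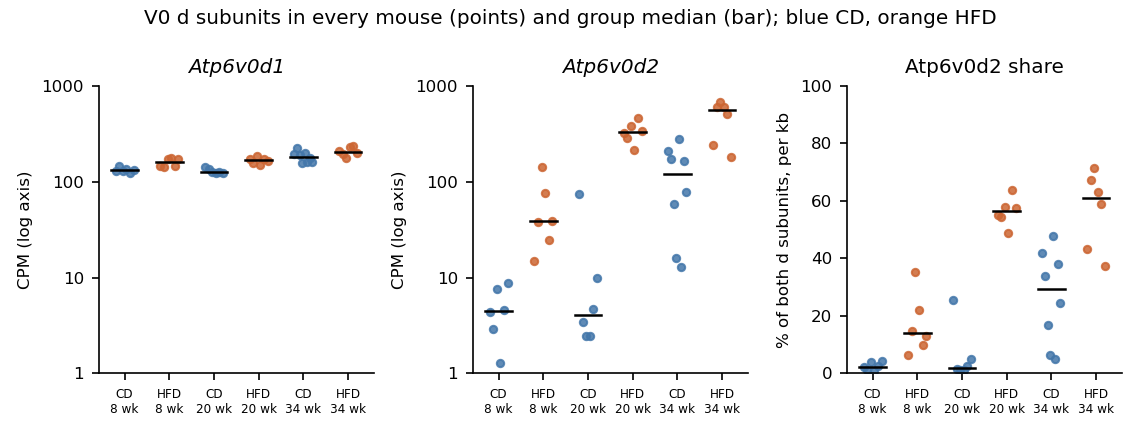
The left and middle panels give CPM of Atp6v0d1 and Atp6v0d2 on the same log axis, and the right panel gives Atp6v0d2 as a percentage of both d subunits per kb of exon. Points are mice, bars are group medians, and blue is CD and orange HFD. Atp6v0d1 stays between 122.5 and 235.5 CPM while Atp6v0d2 climbs from a median of 4.48 CPM in 8 week CD mice to 556 CPM in 34 week HFD mice.

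Atp6v0a1, the a1 subunit of V0, Atp6v1a, the catalytic A subunit of V1, and Atp6v1b2, the B2 subunit beside it, showed the largest differences after Atp6v0d2. Atp6v0a1 ran from 179 to 260.5 CPM in CD and from 259 to 456 CPM in HFD mice at 8 weeks, where 1 HFD mouse overlapped the CD range. At 20 weeks it ran from 113 to 230 CPM in CD and from 397 to 507 CPM in HFD mice without overlap, and at 34 weeks from 154 to 422 CPM and from 365 to 622.5 CPM. It rose by 0.71 ± 0.19, 1.59 ± 0.19 and 0.80 ± 0.18 at the 3 times (adjusted p = 0.00347, 8.20e-08 and 0.000835). Atp6v1a had medians of 133, 155 and 259 CPM in CD and 190, 462 and 536 CPM in HFD mice and rose by 0.57, 1.501 and 0.96 (adjusted p = 0.0301, 8.55e-07 and 0.00044). Atp6v1b2 had medians of 190, 204 and 317 CPM in CD and 238, 509 and 784 CPM in HFD mice. It rose at 20 weeks (1.24 ± 0.23, adjusted p = 2.37e-05) and 34 weeks (1.12 ± 0.21, adjusted p = 0.000172), and its 8 week difference of 0.40 ± 0.23 did not pass (adjusted p = 0.15). The other 10 genes of the class differed by 0.21 to 1.12 on the log2 scale at 20 weeks.

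Among the other hydrolases and membrane proteins, 11 of 17 rose at 8 weeks and none fell, 15 rose at 20 weeks and none fell, and 14 rose at 34 weeks and 1 fell. Lipa, the acid lipase that frees fatty acids and cholesterol from lipids delivered to the lysosome, changed most. Its lowest, median and highest values in CD mice were 65.55, 77.25 and 90.95 CPM at 8 weeks, 68.6, 84.5 and 264 CPM at 20 weeks, and 77.0, 254 and 687 CPM at 34 weeks. In HFD mice they were 105, 171 and 402 CPM, then 552, 810 and 1090 CPM, then 425, 1215 and 1455 CPM. As for Ctsk, the diets were separate at 8 and 20 weeks and overlapped at 34 weeks. The log2 differences were 1.30 ± 0.40, 3.03 ± 0.40 and 2.12 ± 0.38 (adjusted p = 0.00942, 3.14e-07 and 8.90e-05).

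Gusb, the beta-glucuronidase of glycosaminoglycan breakdown, had medians of 72.0, 70.9 and 175 CPM in CD and 138, 411 and 549 CPM in HFD mice. It rose by 1.02 ± 0.28, 2.32 ± 0.28 and 1.495 ± 0.26 (adjusted p = 0.00389, 8.07e-08 and 7.95e-05), again with no overlap at 8 and 20 weeks. Gla, the alpha-galactosidase that removes galactose from glycolipids, had medians of 18.3, 19.7 and 56.0 CPM in CD and 36.7, 87.8 and 127 CPM in HFD mice. It rose by 0.98 ± 0.39, 1.95 ± 0.39 and 1.19 ± 0.36 (adjusted p = 0.0385, 7.25e-05 and 0.00862), and the 8 week call was lost without the filter, with median-of-ratios scaling, with edgeR and with DESeq2. Psap had medians of 1479, 1628 and 4805 CPM in CD and 2437, 6739 and 10710 CPM in HFD mice and rose by 0.82 ± 0.28, 1.91 ± 0.28 and 0.99 ± 0.27 (adjusted p = 0.0197, 1.44e-06 and 0.00352). For the other enzymes of sugar and lipid breakdown, Man2b1, Hexa, Glb1, Neu1 and Asah1, the 20 week rises were 1.55, 1.39, 0.98, 0.80 and 0.70 on the log2 scale. Npc1 and Npc2 hand cholesterol out of the lysosome together but had different courses. Npc1 differed by 0.08 at 8 weeks and rose by 0.81 and 0.85 at 20 and 34 weeks, while Npc2 rose by 0.80 and 0.65 at 8 and 20 weeks and differed by -0.24 at 34 weeks, which did not pass.

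Gaa and Lamp2 did not follow the class. Gaa, the acid glucosidase that breaks down glycogen, ran from 133 to 175 CPM in CD and 166 to 227 CPM in HFD mice at 8 weeks, where it rose by 0.32 ± 0.11 (adjusted p = 0.0154). At 20 weeks its ranges were 126 to 160 CPM in CD and 138 to 170 CPM in HFD mice, a difference of 0.12 ± 0.11 that did not pass (adjusted p = 0.35). At 34 weeks they were 140 to 243 CPM in CD and 140 to 160 CPM in HFD mice, and Gaa fell by 0.37 ± 0.10 (adjusted p = 0.00439). The 8 week call did not hold with TMM or median-of-ratios scaling, edgeR or DESeq2. The 34 week call did not hold when only these 2 groups were fitted, nor with the mean of the macrophage markers added to the fit. Lamp2, a major protein of the lysosomal membrane, had medians of 415.5, 472 and 278 CPM in CD and 357, 433 and 420 CPM in HFD mice. Its differences of -0.23 ± 0.13 at 8 weeks and -0.12 ± 0.13 at 20 weeks did not pass (adjusted p = 0.132 and 0.416), though with TMM scaling both did (-0.34 each, adjusted p = 0.0185 and 0.0127), and at 34 weeks it rose by 0.59 ± 0.12 (adjusted p = 0.000293). Its partner Lamp1 rose at all 3 times, by 0.34, 0.63 and 0.50.

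The course of the diet difference itself was tested with interaction terms. Between 8 and 20 weeks it grew for 2 members and shrank for none, against 2.81% and 1.67% of all genes. Both were cathepsins, Ctsk with a change of 2.895 ± 0.86 (adjusted p = 0.0469) and Ctsa with 1.18 ± 0.34 (adjusted p = 0.0435). This count rests on single mice, as it became 14 without 20 week CD mouse 1 and 0 without any of 19 other mice left out in turn. Between 20 and 34 weeks the difference moved up for 3 members and down for 6, against 4.22% and 6.31% of all genes. Ctso (0.55 ± 0.13, adjusted p = 0.00828), Lamp2 (0.71 ± 0.17, adjusted p = 0.00835) and Ctsc (1.11 ± 0.28, adjusted p = 0.0116) moved up. Ctsd (-1.02 ± 0.28, adjusted p = 0.0186), Atp6v0d2 (-2.99 ± 0.92, adjusted p = 0.032) and Atp6v0a1 (-0.79 ± 0.26, adjusted p = 0.0466) moved down, as did Gaa, Npc2 and Atp6v1e1 (-0.49, -0.88 and -0.41). This count of 9 also depended on single mice. Of 38 omissions of a single mouse, 24 lowered it, to 6 at the lowest, and 4 raised it. The highest count was 15, without 34 week CD mouse 6. Atp6v0a1 lost its call in 24 of the 38 omissions, Atp6v0d2 in 7 and Gaa in 5. Ctso, Lamp2, Ctsc, Ctsd, Npc2 and Atp6v1e1 kept theirs throughout.

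The comparisons within a diet show in which mice the levels moved. In CD mice no member was called at 20 against 8 weeks, where 1.7% of all genes rose and 1.88% fell. At 34 against 8 weeks, however, 34 members rose and 3 fell in CD mice, against 40.1% and 24.6% of all genes, with a median log2 difference of 0.79 for the members and 0.13 for all genes. The 3 that fell were Ctsc (-0.61), Ctso (-0.56) and Lamp2 (-0.58), and the largest rises were those of Atp6v0d2 (3.93 ± 0.63, adjusted p = 3.18e-06), Ctss (3.79 ± 0.53, adjusted p = 4.38e-07) and Ctsk (2.62 ± 0.57, adjusted p = 0.000189). In HFD mice 29 members rose and 3 fell at 20 against 8 weeks, against 21.2% and 15.3% of all genes. At 34 against 20 weeks 7 rose and none fell in HFD mice, against 17.8% and 12.5%, and the median was 0.31 for the members and 0.06 for all genes. For HFD mice at 20 against 8 weeks, the 32 members called in either direction became no fewer than 26 with any mouse left out. With the mean of the macrophage markers added to the fit, 6 were called. The share of all genes called for this comparison in that fit is not given here. The drop can therefore not be read as particular to the members. The 7 called at 34 against 20 weeks became 1 without 20 week HFD mouse 4 or without 34 week HFD mouse 4. Without 34 week HFD mouse 6 they became 14. These comparisons share groups with those of the diets, so their counts are not independent of each other.

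The 34 week CD mice were far from alike. Ctsk was 294 CPM in mouse 5, 90.9, 77.2 and 76.9 CPM in mice 1, 2 and 7, 32.4 and 22.9 CPM in mice 3 and 8, and 13.9 and 11.4 CPM in mice 6 and 4. Atp6v0d2 was 281 CPM in mouse 5, 209, 174 and 164 CPM in mice 1, 2 and 7, 78.2 and 58.1 CPM in mice 8 and 3, and 16.0 and 12.8 CPM in mice 4 and 6. Mouse 5 was thus the highest and mice 4 and 6 were the lowest for both genes. The mean of the macrophage markers was 8.33 in mouse 5, the highest of the group, and 6.01 and 5.30 in mice 4 and 6. The order was not the same throughout, as mouse 3 had a lower marker mean (5.69) than mouse 4 but more Ctsk and Atp6v0d2. The mean of 12 adipocyte markers was 10.2 in mouse 5 and 11.2 and 11.4 in mice 4 and 6.

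Markers of macrophages also differed between the diets. The macrophage list holds 14 genes, of which 13 were matched (Adgre1 was not analysed here), and none of the 13 stayed under 1 CPM in all mice. Their summed level ran from 305 to 1575 CPM in CD and from 1124 to 3174 CPM in HFD mice at 8 weeks, from 478 to 3281 CPM and from 4307 to 8204 CPM at 20 weeks, and from 1169 to 12250 CPM and from 5055 to 14760 CPM at 34 weeks. Of the 12 that could be tested, 8 rose at 8 weeks, 9 rose and 1 fell at 20 weeks, and 10 rose at 34 weeks, with Tyrobp at 3.77 and Cd163 at -1.35 at 20 weeks. The 7 lipid-associated macrophage markers all rose at 8 and 20 weeks, and 5 of 7 rose at 34 weeks, with Gpnmb at 6.66 and Mmp12 at 5.78 at 20 weeks. Their summed level ran from 89.2 to 194 CPM in CD and from 382 to 1981 CPM in HFD mice at 8 weeks, from 76.5 to 1544 CPM and from 2940 to 9062 CPM at 20 weeks, and from 546 to 4581 CPM and from 3166 to 9181 CPM at 34 weeks.

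The 12 adipocyte markers were the most abundant of these lists, with a summed level of 17210 to 69300 CPM over the 38 mice, and by group from 42960 to 69300 CPM in CD and 25970 to 36030 CPM in HFD mice at 20 weeks. At 20 weeks 8 of them fell and 1 rose, with Cfd at -4.03, Retn at -1.92 and Lep at 2.896. All 5 endothelial markers rose at each time, and 2 of 4, 4 of 4 and 2 of 4 tested progenitor and fibroblast markers rose at 8, 20 and 34 weeks. The 4 T cell markers Cd3d, Cd3e, Cd3g and Cd8a stayed under 1 CPM in all mice. B cell, neutrophil and epididymis markers had median log2 means of at most 0.689, 1.985 and 0.306 in any group, and 2 of 3 tested mesothelial markers rose at 8 weeks and none at the later times. In RNA of such a bulk fraction, more cells of a type and more RNA per cell cannot be told apart.

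Within groups, the members followed the macrophage markers from mouse to mouse. Each member was related to the mean of the 13 markers after the group means had been removed, over 38 mice, with 100000 permutations of mice within groups and Benjamini-Hochberg adjustment over the 86 relations computed. For 36 of 43 members the relation was positive and passed, for none was it negative and passed, and the median Pearson r was 0.73. The weakest r that passed was 0.42, and 25.9% of the 10331 genes tested outside the marker list had an r at least as high, 12.9% had one as far below 0, and their median r was 0.10. Ctsh had the highest value (r = 0.97, rho = 0.97, each with permutation p = 1e-05, the smallest that these permutations can give, and adjusted p = 1.8e-05 and 2.1e-05), followed by Ctss (r = 0.90, rho = 0.91). Ctsk (r = 0.78, rho = 0.73), Atp6v0d2 (r = 0.74, rho = 0.71) and Lipa (r = 0.81, rho = 0.81) had the same smallest permutation p. Without the 2 mice farthest from the median, 20 week CD mouse 1 and 34 week CD mouse 5, r was 0.97 for Ctsh, 0.89 for Ctss, 0.68 for Ctsk, 0.66 for Atp6v0d2 and 0.74 for Lipa, and it changed sign for none of the 43.

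The members whose Pearson r did not pass were Gaa (r = -0.24), Ctso (-0.22), Ctsf (-0.16), Npc2 (0.16), Atp6v1e1 (0.16), Atp6v1h (0.24) and Atp6v0e (0.33), although the rank correlation of Atp6v0e did pass (rho = 0.37, permutation p = 0.0342, adjusted p = 0.0409). Ctsc lay lower in HFD than in CD mice at 8 and 20 weeks, where the macrophage markers lay higher, yet within groups its relation with them was positive (r = 0.485, rho = 0.41, permutation p = 0.016 and 0.0244, adjusted p = 0.0199 and 0.0296). With the mean of the adipocyte markers, 34 of 43 members had a negative relation that passed, none had a positive one, and the median r was -0.75. The weakest of these was -0.50, and 24.1% of the 10331 other genes tested lay at or below it, 14.2% lay as far above 0, and their median r was -0.10. CPM are shares of a fixed total, so that markers of different cells are tied to each other in sign.

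**Figure D5:**
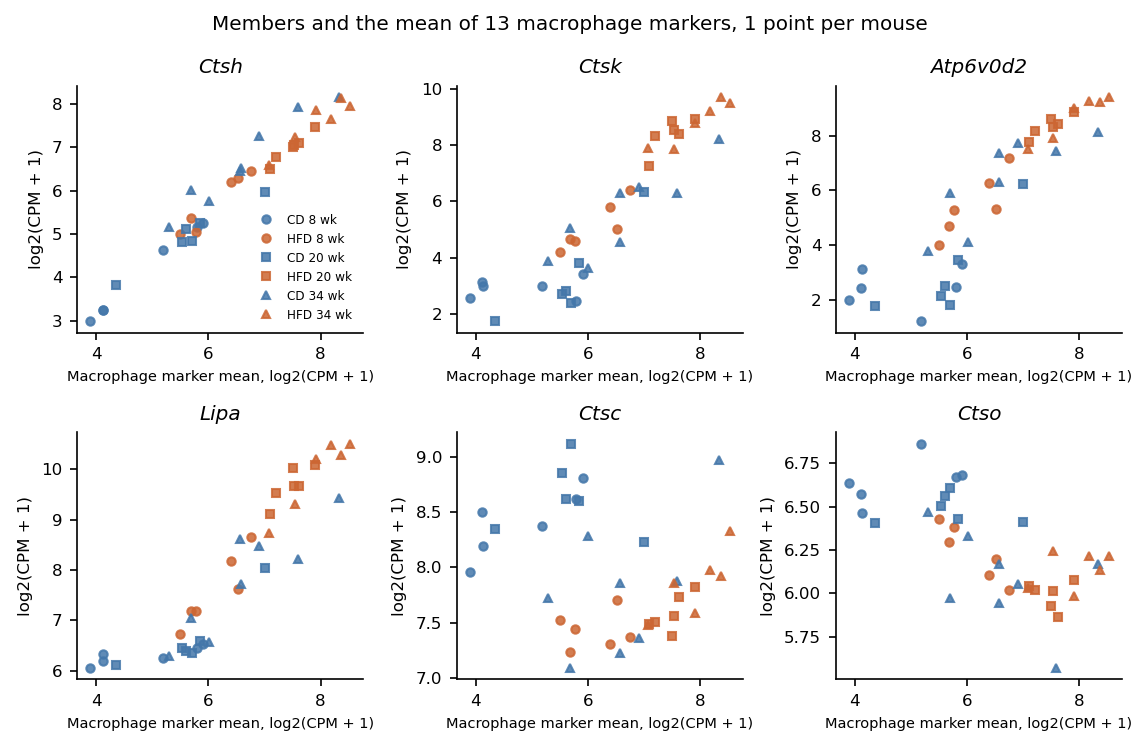
Each panel plots the log2(CPM + 1) of a member against the mean log2(CPM + 1) of 13 macrophage markers, with a point per mouse, colours for diet and symbols for weeks. Ctsh, Ctsk, Atp6v0d2 and Lipa climb with the marker mean, while Ctsc and Ctso are split by diet at 8 and 20 weeks.

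With the macrophage marker mean as a covariate in the fit, fewer members and fewer of all genes were called. The number went from 30 to 13 at 8 weeks, from 40 to 26 at 20 weeks and from 32 to 10 at 34 weeks, and the members' median difference was 0.09, 0.42 and 0.21, where that of all genes was 0.05, 0.08 and 0.03. In this fit 10 members rose and 3 fell at 8 weeks, against 20.7% and 14.5% of all genes, which is near the background. At 20 weeks 23 rose and 3 fell, against 20.9% and 9.49%, and at 34 weeks 9 rose and 1 fell, against 6.5% and 3.88%. At 20 weeks Ctsk (3.01), Atp6v0d2 (3.204), Ctss (1.69), Lipa (1.61), Gusb (1.41) and Atp6v0a1 (1.13) were still higher in HFD mice, and Ctsc (-1.48), Ctso (-0.41) and Lamp2 (-0.44) were lower. Ctsh at 20 weeks was 0.16 in this fit and Gla 0.45, and neither was called. The covariate itself differs between the diets, so that this fit does not separate diet from macrophage content, and the part of macrophages in the differences was not tested.

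Other genes of the lysosome were counted from lists. Of 22 other lysosomal hydrolases, 12 rose and 2 fell at 8 weeks, 18 rose and 1 fell at 20 weeks, and 15 rose and none fell at 34 weeks. The largest rises at 20 weeks were those of Lgmn, the asparaginyl endopeptidase that trims cathepsins (2.65 ± 0.48), and Manba, a mannosidase (1.57 ± 0.25), and the only fall was that of Acp5, the tartrate-resistant acid phosphatase (-0.46 ± 0.16). Of 19 other membrane and sorting proteins tested, 8, 13 and 10 rose and 0, 1 and 1 fell at the 3 times. There, Cd68 (3.29 ± 0.49) and Laptm5 (3.21 ± 0.52), both known from macrophages, rose most at 20 weeks and the sorting receptor Sort1 fell (-0.60 ± 0.15). Among 4 other pump subunits tested, Tcirg1 and Atp6v1g1 (0.40) rose and Atp6v0e2 (-0.58) fell at 20 weeks. The 3 cathepsin inhibitors tested all rose at 20 weeks, Serpinb6a by 1.67, Cstb by 1.44 and Cst3 by 0.25.

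Among the 4 MiT/TFE transcription factors, Tfeb, Tfec and Mitf were called higher at 20 and 34 weeks but not at 8 weeks. Tfe3 took another course. Tfeb, the best known regulator of lysosomal genes, differed by 0.44 at 8 weeks (adjusted p = 0.11) and rose by 1.52 at 20 weeks (adjusted p = 1.2e-06) and 0.97 at 34 weeks (adjusted p = 0.00059). Tfec rose by 2.72 ± 0.38 and Mitf by 1.54 ± 0.26 at 20 weeks, and both rose at 34 weeks (0.88 and 1.41). Tfe3 fell by 0.33 at 8 weeks (adjusted p = 0.025), differed by 0.13 at 20 weeks (adjusted p = 0.34) and rose by 0.55 at 34 weeks (adjusted p = 0.00036).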

How the data were processed

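Adipocyte RNA of 38 mice was analysed. According to the methods and the submitters' notes, the authors aligned stranded mRNA reads to mm10 with STAR (2.5 and 2.5.2b are listed), counted them over GENCODE vM2 exons with featureCounts and used edgeR and limma. The deposited values are the authors' CPM (reads of a gene per 1000000 reads), 1 column per mouse with 3 technical replicates merged. The methods describe TMM factors, but each column sums to 1000000, so none is visible. All values (100.0%) are whole reads within 0.1 reads.

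The 6 groups were fitted together with limma 3.58.1 (R 4.3.3) on log2(CPM + 1) for 10343 genes with a mean above 2.0, with trend, 32 residual degrees of freedom, two-sided tests and Benjamini-Hochberg adjustment over all genes (threshold 0.05). The fit was tested on simulated data. Alternatives were a pseudocount of 0.25, no filter, TMM and median-of-ratios scaling, edgeR 4.0.16 and DESeq2 1.42.0 on the recovered reads, only the groups compared, a block by mouse number, a macrophage covariate, and each mouse left out. On these reads edgeR called 2297 genes higher and 2134 lower at 8 weeks, 2679 and 3418 at 20 weeks, and 2213 and 2235 at 34 weeks. Members with the largest mean difference of their class, falling members, and members with called interactions are described individually. The members and lists were chosen with earlier results of these data known. Positions are RefSeq (GRCm38.p6) and exon lengths GENCODE vM21. Reads carry no molecular identifiers, so depth covers counting error only.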

Additional observations from a re-analysis of the deposited data

Results flagged for a closer look

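Among 19 members described individually in 6 groups, 5 of 114 group ranges held a mouse far from the others on the log2(CPM + 1) scale, where chance gives about 1 in 20. In 20 week CD mice, mouse 1 was far above the rest for Ctsz (351.9 CPM), Lipa (264 CPM) and Psap (2945 CPM), and its macrophage marker mean was 7.00 against at most 5.84 in the others. In 20 week HFD mice, mouse 4 was far below the rest for Ctsk (153 CPM), and mouse 5 was far above them for Lamp2 (507 CPM). Their macrophage marker means of 7.10 and 7.91 were the lowest and the highest of that group. The part of macrophages in these values was not tested.

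The diet difference changed between times, by a test of the interaction, for 9 pairs of a described member and an interval. Members with a called interaction were among those chosen for description, so this number is partly fixed by that choice. Of all genes, the difference moved up for 2.81% and down for 1.67% from 8 to 20 weeks. From 20 to 34 weeks it did so for 4.22% and 6.31%. Among the described members, the diet difference grew from 8 to 20 weeks for Ctsa (1.18) and Ctsk (2.895). Of 38 mice left out in turn, Ctsa lost this call with 21 and Ctsk with 22. Neither was called without the filter on low values or with the mouse number as a block. From 20 to 34 weeks the diet difference moved up for Ctsc (1.11), Ctso (0.55) and Lamp2 (0.71), on the log2 scale. It moved down for Ctsd (-1.02), Atp6v0a1 (-0.79), Atp6v0d2 (-2.99) and Gaa (-0.49). Atp6v0a1 lost this call with 24 of the 38 mice, Atp6v0d2 with 7 and Gaa with 5.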

How the results depend on the processing

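The log2 differences of the 19 described members at the 3 times were computed under 9 other settings. Of 513 values, 447 kept their side of the threshold, while 51 lost and 13 gained the call. The 447 include any value that changed direction without being called in either fit. The remaining 2 changed direction and were called in one of the fits compared. They were Ctsh at 34 weeks (-0.43, adjusted p = 0.0216) and Gla at 8 weeks (-0.074, adjusted p = 0.80), both with the macrophage covariate. With that covariate the members called numbered 13, 26 and 10 for HFD against CD at 8, 20 and 34 weeks, 1 and 21 for CD mice at 20 and 34 against 8 weeks, 6 for HFD mice at 20 against 8 weeks, and 10 for the diet difference at 20 against 8 weeks. With only the groups compared, 39 were called for HFD against CD at 8 weeks and 20 at 34 weeks. In that setting 1 was called for CD mice at 20 against 8 weeks and 23 for the diet difference at 20 against 8 weeks. For HFD mice at 34 against 20 weeks, 2 were called without the filter and 3 with median-of-ratios scaling, where 7 had been. The 2 members of the diet difference at 20 against 8 weeks became 1 with a pseudocount of 0.25, 0 without the filter, 4 with TMM, 4 with median-of-ratios, 1 with edgeR and 5 with DESeq2. Shares of all genes called are given above for only some of these settings, so such counts alone are not results about the members. Causes were not tested. Leaving out each mouse in turn gave 0 to 1 for CD mice at 20 against 8 weeks, 1 to 14 for HFD mice at 34 against 20 weeks, 0 to 14 for the diet difference at 20 against 8 weeks and 6 to 15 for that at 34 against 20 weeks. For HFD against CD the ranges were 20 to 32, 39 to 40 and 28 to 36.

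Mouse numbers do not pair the samples: deviations of mice with the same number correlated with a median of -0.07, from -0.68 to 0.55, and 4 mice matched their own number best. With the number as a block, 28, 40 and 28 members were called for HFD against CD at 8, 20 and 34 weeks and 0 for the diet difference at 20 against 8 weeks.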
